A study of Sus scrofa with 6 samples.

Results

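The solute carriers (SLC genes) are the membrane transporters that move amino acids, sugars, metals, vitamins, nucleotide sugars and inorganic ions across cell and organelle membranes without hydrolysing ATP themselves. The genes described here are those whose single symbol in the platform annotation began with SLC and a digit. There were 120 of them on the array. Each gene was represented by its probe set of highest mean log2 signal over all 6 arrays, and a gene was kept where that mean reached a signal of 48.5. This left 88 solute carrier genes of the 5271 genes kept on the same terms. Those 88 include 2 whose names only derive from a carrier, the scaffold gene SLC9A3R1 and the transcriptional regulator SLC2A4RG.

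The genes were chosen by their mean signal over both pressure groups, so their levels are given as a description. The genes just inside the limit were SLC1A3 and SLC23A2, with mean signals of 51.1 and 53.7, and those just outside were SLC5A1 and SLC34A2, at 44.6 and 42.6. Of the 88 genes, 73 lay at or above the limit on every array. In 7 genes the geometric mean of 1 group lay below the limit, so the gene was kept through the other group and had to have the higher mean there. SLC35C1 and SLC23A2 were kept through the hypertensive arrays, and SLC1A3, SLC25A11, SLC27A1, SLC2A12 and SLC37A1 through the normotensive ones. Of the 32 genes below the limit, the groups overlapped in all but SLC27A6, SLC2A4, SLC1A2 and SLC9A4. The share over all genes below the limit was not computed.

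Families of solute carriers are numbered by sequence, and most families share a kind of substrate. Plasma membrane carriers such as the SLC2 glucose transporters and the SLC7 amino acid exchangers set what a cell takes in. Most SLC25 carriers shuttle metabolites across the inner mitochondrial membrane. The SLC35 carriers bring nucleotide sugars into the endoplasmic reticulum and Golgi, where matrix proteins are glycosylated. In the aortic valve leaflet the interstitial cells, which build and remodel the matrix, are the main resident cells beneath the endothelium.

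Transcripts were measured on 6 Affymetrix Porcine Genome arrays. Leaflets of adult female pigs were treated with collagenase II to remove the endothelium. They were kept overnight in medium with serum and then placed in a pressure bioreactor. In the normotensive group (3 arrays) cyclic pressure ran from 0 to 80 mmHg, and in the hypertensive group (3 arrays) from 0 to 120 mmHg, in each case at 1 Hz for 24 h. These are excised leaflets held in culture after a step to remove the endothelium, whose markers are given below. Replicates are biological by their labels, but whether each came from its own pig is not said; the p-values describe the spread among these 6 samples, part of which may be technical.

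The arrays did not stand equally far from one another. Over the kept probe sets, hypertensive replicates 1, 2 and 3 had mean correlations of 0.817, 0.950 and 0.895 with the normotensive arrays, which among themselves lay at 0.958 to 0.971. For the 88 solute carriers, the median absolute log2 distance from the normotensive mean was 0.856, 0.304 and 0.631 on hypertensive replicates 1, 2 and 3. The normotensive arrays lay at 0.243 to 0.295 from the mean of the other two. The ratio of 3′ to 5′ GAPDH control signals, a sign of RNA integrity, ran from 2.11 to 7.52 on the normotensive and from 2.91 to 6.04 on the hypertensive arrays. For the actin control the ratio was far higher, at 41.1 to 109 on the normotensive and 52.5 to 81.7 on the hypertensive arrays. For the EF1A control it was lower, at 1.3 to 1.65 and 1.35 to 1.55. Of 8 fibroblast markers 7 were measured, and their summed signal was 73899 to 74826 on the normotensive and 50960 to 64527 on the hypertensive arrays, lower in mean in all 7. Endothelial markers (8 of 8 on the array) summed to 2489 to 3046 and 2040 to 3879, with VWF and KDR below the limit on every array. Single endothelial markers lay apart in both directions: SELP was at 95.4, 245 and 90.6 on normotensive replicates 1, 2 and 3 and at 2296, 784 and 368 on the hypertensive ones, CDH5 was also higher without overlap, and ERG was lower without overlap. Macrophage and other leukocyte markers (6 of 8) summed to 1554 to 2707 and 656 to 2363, with ITGAM below the limit throughout. Red blood cell markers (2 of 5) summed to 1356 to 1558 and 1119 to 2473. Smooth muscle markers (4 of 5) summed to 2653 to 4898 and 1373 to 4607, with DES below the limit throughout and ACTA2 at 267 on hypertensive replicate 2 against 1840 to 2801 on the normotensive arrays. Chondrocyte markers (4 of 4) summed to 1048 to 1993 and 1175 to 2727, and COMP had a geometric mean of 619 under normotensive and 1204 under hypertensive pressure. Adipocyte markers (3 of 4) summed to 90.0 to 149 and 86.5 to 171. Their part in the results below was not tested, and in whole leaflets fewer cells of a type and less RNA per cell cannot be told apart.

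No solute carrier passed the genome-wide threshold between the pressures. By limma, 0 of the 88 genes reached an adjusted p of 0.05, as did 0% of all 5271 genes, and the lowest adjusted p among the 88 was 0.237. At an unadjusted p under 0.05 stood 19 of the 88 genes (21.6%), against a background of 17.0% of all genes. They divided into 14 higher (15.9%, background 6.85%) and 5 lower at hypertensive pressure (5.68%, background 10.2%). The groups did not overlap in 23 genes (26.1%, background 21.9%), with 15 higher (17.0%, background 9.28%) and 8 lower (9.09%, background 12.6%). These counts hold the genes kept through 1 group. Over the 81 solute carriers whose means reached the limit in both groups, a restriction chosen after seeing the data, 12 were higher at an unadjusted p under 0.05 (14.8%, background 6.54%) and 4 lower (4.94%, background 9.72%). Among these 81 the groups did not overlap in 13 higher (16.0%, background 8.99%) and 7 lower genes (8.64%, background 12.3%). The median log2 difference, hypertensive minus normotensive, was -0.07 over the 88 genes and -0.07 over all genes. Single arrays moved these counts: the 14 higher genes became 5 without normotensive replicate 1 or 3, 9 without normotensive replicate 2 or hypertensive replicate 3, 7 without hypertensive replicate 1 and 22 without hypertensive replicate 2. The 5 lower genes became 3 without normotensive replicate 1 or 2, and 20 without hypertensive replicate 2. The matching shares over all genes were not computed, so these shifts may be those of the whole array.

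**Figure D1:**
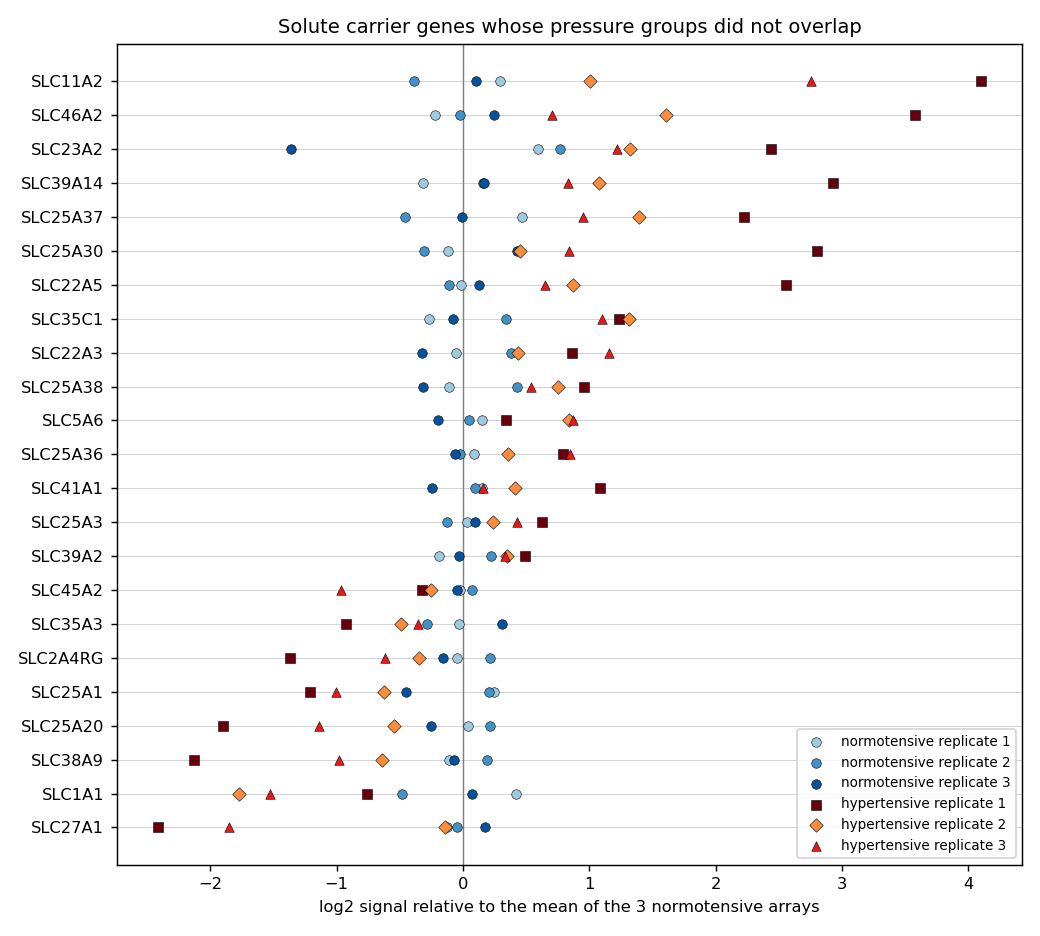
Log2 signal of the 23 solute carrier genes whose groups did not overlap, on each of 6 arrays, relative to the mean of the 3 normotensive arrays (circles). In the 15 genes at the top all hypertensive points lie to the right of the normotensive points, in the 8 at the bottom to the left, and hypertensive replicate 1 (squares) is often the most distant.

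The substrate classes did not lie on one side. Class medians of the log2 difference were above 0 for mitochondrial carriers (0.32, 20 genes), vitamin and choline carriers (0.26, 6 genes), nucleotide sugar and acetyl-CoA carriers (0.26, 11 genes), metal ion carriers (0.24, 13 genes) and inorganic ion exchangers (0.12, 6 genes). They were below 0 for sugar carriers (-0.27, 12 genes) and amino acid carriers (-0.21, 11 genes). On hypertensive replicates 1 and 3 the sugar class lay at -0.53 and -0.58 and the amino acid class at -0.76 and -0.35. On hypertensive replicate 2 those medians were 0.0045 and -0.04, inside the normotensive ranges. The metal ion class had medians of 0.38, 0.20 and 0.16 on hypertensive replicates 1, 2 and 3, and 0.00022 to 0.15 on the normotensive arrays. The vitamin median was -0.17 over the genes whose means reached the limit in both groups, which leaves out SLC23A2. No class was tested as a set, and the remaining members belong to classes of 3 genes or fewer.

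**Figure D2:**
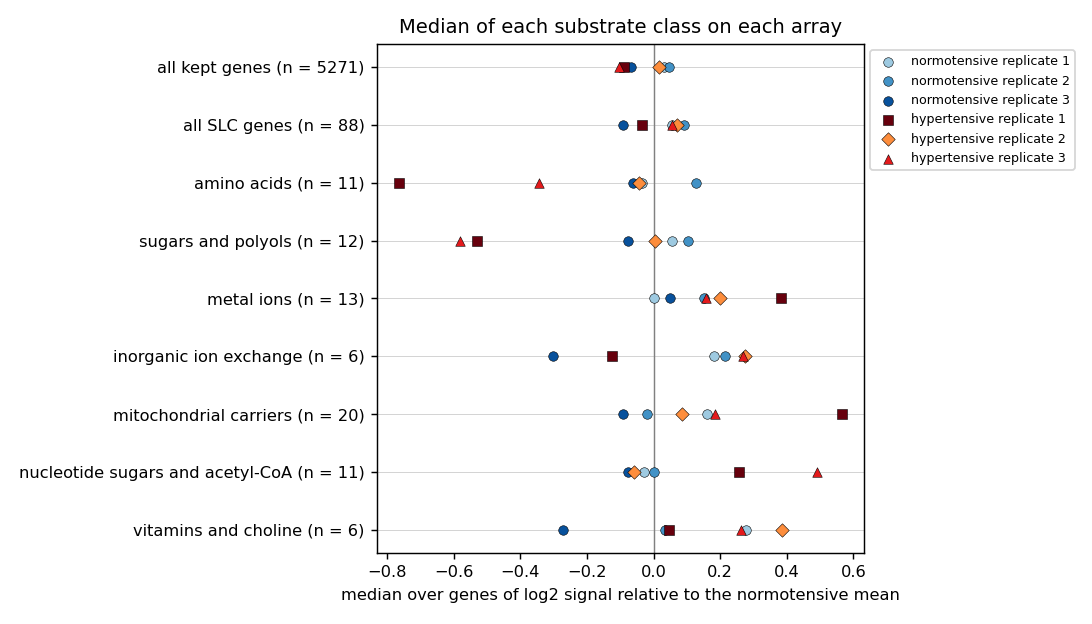
Median log2 signal of each substrate class relative to the normotensive mean, 1 point per array, with the number of genes in brackets. The sugar and amino acid classes lie below the normotensive points on hypertensive replicates 1 and 3 but not on replicate 2, while the metal ion class lies above them on all 3 hypertensive arrays, on replicate 3 by very little.

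Among metal carriers the iron and zinc importers SLC11A2 and SLC39A14 had higher signal at hypertensive pressure. SLC11A2 (DMT1) takes up ferrous iron and other divalent metals at the cell surface and in endosomes. Its signals, given here and below in the order of replicates 1, 2 and 3, were 141, 88.1 and 123 under normotensive and 1979, 231 and 776 under hypertensive pressure. All 3 hypertensive arrays lay above all normotensive ones, but they spread widely, with replicate 1 far above replicate 2. The ratio of geometric means was 6.14 (log2 2.62, SE 0.69, limma adjusted p = 0.237). Without hypertensive replicate 1 it was 3.67 (limma adjusted p = 0.381). Without replicate 2 it was 10.8 (limma adjusted p = 0.0037), in a setting where 26.0% of all genes passed. A further SLC11A2 probe set, at 127, 136 and 118 against 200, 315 and 114, had a ratio of 1.52 with overlapping groups, so the size of the SLC11A2 difference depended on the probe set.

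SLC39A14 (ZIP14), which imports zinc, iron and manganese, had signals of 174, 242 and 244 under normotensive and 1658, 458 and 387 under hypertensive pressure. The hypertensive arrays again lay above the normotensive ones, led by replicate 1. The ratio was 3.06 (log2 1.61, SE 0.54, limma adjusted p = 0.265), and 1.94 without hypertensive replicate 1. A further, dimmer SLC39A14 probe set was also higher without overlap, at 84.4, 36.5 and 9.50 against 298, 85.4 and 105. SLC39A7 (ZIP7), which releases zinc from the endoplasmic reticulum, was at 501, 818 and 375 against 1805, 626 and 1008. Its groups overlapped because hypertensive replicate 2 lay below the highest normotensive array.

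The other metal carriers differed less. The groups did not overlap for the magnesium transporter SLC41A1 (ratio 1.47) or the zinc carrier SLC39A2 (ratio 1.31), both higher. Both further SLC41A1 probe sets had overlapping groups, with log2 differences of 0.28 and -0.38. The copper importer SLC31A1 was at 1355, 1084 and 1419 against 1796, 1299.8 and 2150.3, with overlapping groups. For SLC11A1, the metal transporter of the macrophage phagosome, the log2 difference was 0.07 (SE 0.33). SLC30A5, a zinc carrier of the secretory pathway, had probe sets of opposite sign, the brighter at a log2 difference of 0.24 and the other at -1.12 with groups that did not overlap. Of the 13 metal carriers 9 had higher means, and 4 were higher without overlap (30.8%, background 9.28%) and 0 lower (background 12.6%).

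Of the iron genes that act beside these carriers, 6 of 15 listed were measured. IREB2, the iron regulatory protein that controls the mRNAs of iron genes, was at 369, 354 and 470 against 1344, 537 and 980.1. It was the 1 gene of the 6 whose groups did not overlap (16.7%, background 21.9%). The IREB2 ratio was 2.26 (log2 1.18, SE 0.37, limma adjusted p = 0.257). The ferritin genes FTH1 and FTL, which encode the iron store, differed by 0.18 (SE 0.18) and -0.11 (SE 0.23) on the log2 scale. ACO1, HMOX1 and NCOA4 had overlapping groups. The metallothionein MT1A, the 1 measured gene of the zinc list, had a log2 difference of -0.56 (SE 0.55).

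Mitochondrial carriers, taken here as the whole SLC25 family by number, were the most numerous class, with 20 of 21 genes kept. SLC25A37 (mitoferrin-1), which imports iron into mitochondria for haem and iron-sulphur cluster synthesis, had signals of 392, 207 and 281 under normotensive and 1325, 745 and 546 under hypertensive pressure. The hypertensive arrays lay above the normotensive ones in all 3 cases, replicate 2 included. The ratio was 2.87 (log2 1.52, SE 0.40, limma adjusted p = 0.237). SLC25A38, which carries glycine into mitochondria for haem synthesis, was at 586, 853 and 508 against 1229, 1066 and 918, a ratio of 1.68 without overlap. The phosphate carrier SLC25A3, which supplies phosphate for ATP synthesis, was at 9044, 8098 and 9441 against 13669, 10413 and 11867. The SLC25A3 difference was small but tight, with a ratio of 1.35 (log2 0.43, SE 0.16), and a further probe set was higher as well, at 1.77. SLC25A36, a pyrimidine nucleotide carrier, was at a ratio of 1.59. SLC25A30 was at a ratio of 2.57, and at 1.56 without hypertensive replicate 1, whose signal of 909.7 stood against 179 and 233.

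Carriers of citrate and of acylcarnitine lay lower. The citrate carrier SLC25A1, which exports citrate for fatty acid synthesis, had signals of 588, 575 and 364 under normotensive and 215, 321 and 247 under hypertensive pressure. All hypertensive arrays lay below the normotensive ones, at a ratio of 0.518 (log2 -0.95, SE 0.32, limma adjusted p = 0.265). SLC25A20, the carnitine and acylcarnitine carrier of fatty acid oxidation, was at 391, 439.5 and 318 against 102, 259 and 172. The SLC25A20 ratio was 0.436 (log2 -1.20, SE 0.38, adjusted p = 0.257). Both differed by more than the spread of the normotensive arrays, and in both hypertensive replicate 2 lay nearest to them. The 2-oxoglutarate carrier SLC25A11 and the outer membrane protein SLC25A46, chosen after their values were seen, were low on hypertensive replicates 1 and 3 but not on replicate 2. SLC25A46 was at 506, 504 and 261 against 87.5, 509 and 108. Its ratio of 0.416 was 0.578 without hypertensive replicate 1 and 0.240 without replicate 2.

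The adenine nucleotide translocases, which exchange ATP for ADP, did not separate by pressure. SLC25A4 had a log2 difference of -0.12 (SE 0.31), SLC25A6 of 0.38 (SE 0.31) and SLC25A5 of 0.69 (SE 0.44). SLC25A5 was at 2114, 1896 and 1902 against 5231, 1496 and 4113, so replicate 2 lay below all normotensive arrays while replicates 1 and 3 lay above. These 3 genes are close in sequence, and a probe set may take up signal from a related copy. Of the 20 mitochondrial carriers 12 had higher means and 8 lower, and the groups did not overlap in 5 higher (25%, background 9.28%) and 2 lower genes (10%, background 12.6%). The 8 with lower means include SLC25A11, which was kept through the normotensive arrays.

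**Figure D3:**
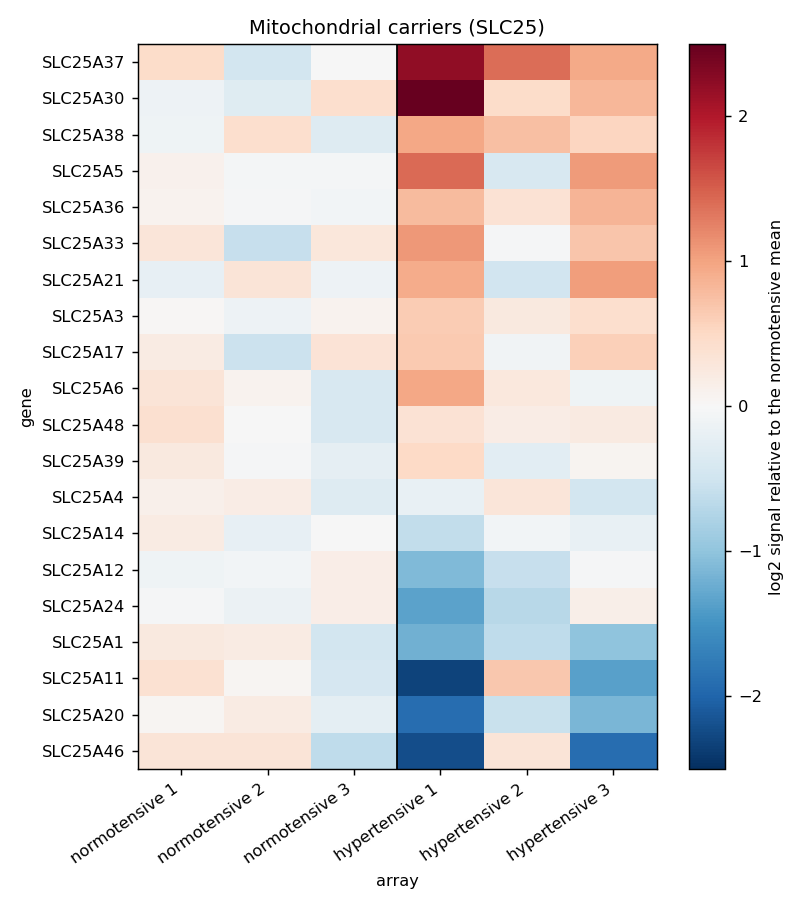
Log2 signal of the 20 mitochondrial carriers on each array relative to the normotensive mean, red for higher and blue for lower, ordered by the mean difference between groups. SLC25A37 at the top is red on all 3 hypertensive arrays and SLC25A20 near the bottom is blue on all 3, while SLC25A11 and SLC25A46 are blue only on replicates 1 and 3.

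Other carriers of the carnitine and fatty acid route were also measured. SLC22A5 (OCTN2), which takes carnitine into the cell, had signals of 127, 119 and 140.2 under normotensive and 754, 235 and 201 under hypertensive pressure. The groups did not overlap, and the SLC22A5 ratio of 2.56 (log2 1.36, SE 0.49, limma adjusted p = 0.269) was 1.69 without hypertensive replicate 1. SLC22A5 therefore lay higher where SLC25A20, a later step of carnitine transport, lay lower. The fatty acid transport gene SLC27A1 (FATP1), kept through its normotensive signals, was at 94.2, 99.6 and 116 against 19.3, 93.3 and 28.5. Hypertensive replicate 2 lay just below the normotensive arrays and replicates 1 and 3 far below, with a ratio of 0.361. The SLC27A1 ratio was 0.501 without hypertensive replicate 1 (limma adjusted p = 0.590) and 0.228 without replicate 2 (limma adjusted p = 0.0093). SLC27A6 (FATP6), a fatty acid transport gene left out by the signal limit, was at 114, 116 and 114 on the normotensive arrays and below the limit on all hypertensive arrays. This puts SLC27A6 at least 2.36-fold lower, taking the limit of 48.5 for the hypertensive level. SLC22A3, an organic cation transporter, was at a ratio of 1.76 without overlap.

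In 5 of the 12 sugar carriers (41.7%) hypertensive replicates 1 and 3 both lay below all normotensive arrays, near the 32.4% of all genes. In 1 of the 5 replicate 2 lay below as well. Of these 5, SLC2A12 and SLC37A1 were kept through the normotensive arrays and had to have the lower mean at hypertensive pressure. SLC2A1 (GLUT1), the basal glucose transporter, had signals of 1607, 1687 and 1331 under normotensive and 526, 1696 and 773 under hypertensive pressure. Replicate 2 was the highest of all 6 arrays, so the groups overlapped (ratio 0.576, log2 -0.80, SE 0.42, limma adjusted p = 0.351). SLC16A3 (MCT4), which exports lactate from glycolytic cells, was at 462, 398 and 207 against 34.3, 375 and 70.7. Replicates 1 and 3 were again low and replicate 2 lay among the normotensive arrays, with a ratio of 0.288 (log2 -1.80, SE 0.80), which was 0.484 without hypertensive replicate 1 and 0.146 without replicate 2. SLC50A1, a sugar carrier of the Golgi, was at 303, 354 and 236 against 81.0, 276 and 145. SLC2A3 (GLUT3), a high-affinity glucose transporter, was at 7195, 5706 and 7179 against 7230.2, 10274 and 2913, with no common direction among the hypertensive arrays; its log2 difference of -0.15 became 0.37 without replicate 3. Of the 12 sugar carriers 10 had lower means, SLC2A12 and SLC37A1 among them. However, SLC45A2 was the only 1 of the 12 whose groups did not overlap (8.33%, background 21.9%). SLC45A2 was at 71.8, 76.5 and 70.5 against 58.1, 61.0 and 37.2. The BSG gene, whose product escorts monocarboxylate carriers to the membrane, had a log2 difference of -0.20 (SE 0.28).

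**Figure D4:**
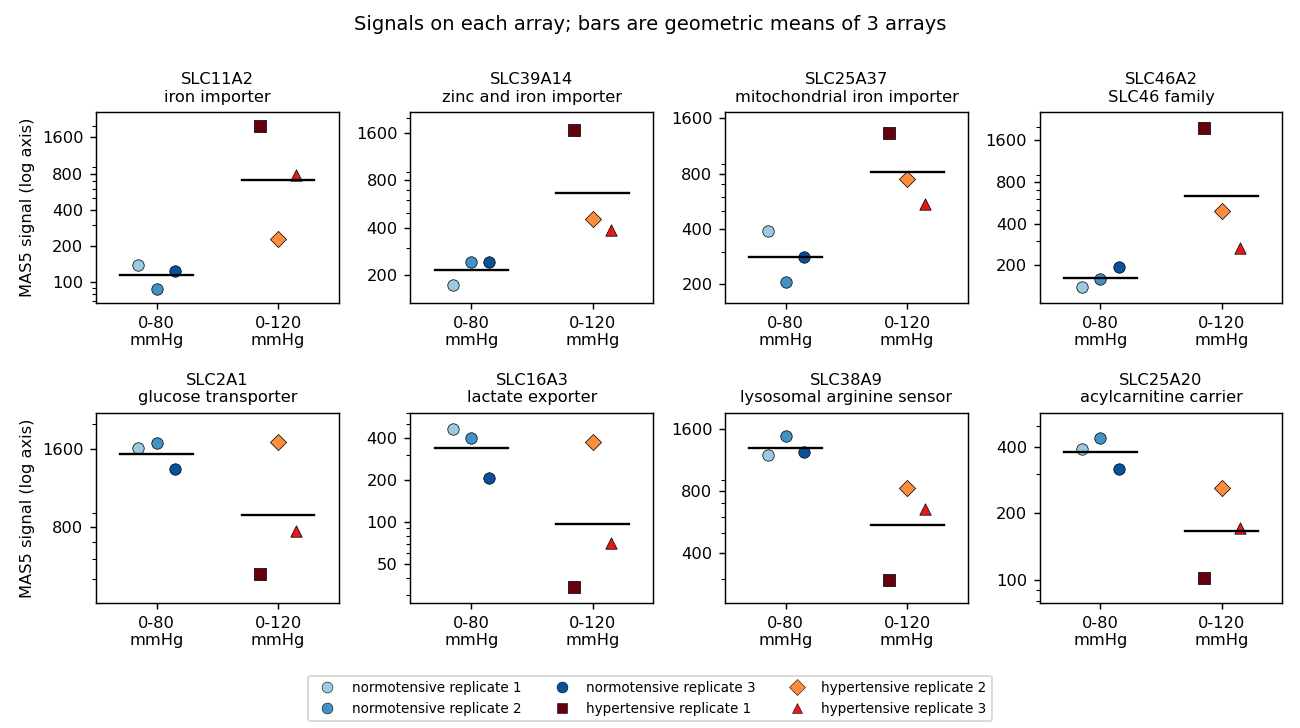
MAS5 signal (log axis) of 8 carriers on each array under cyclic pressure of 0 to 80 or 0 to 120 mmHg, with bars at the geometric mean of 3 arrays. In the upper row all hypertensive points lie above the normotensive ones; in SLC2A1 hypertensive replicate 2 (diamond) is the highest point and in SLC16A3 it sits among the normotensive points, with replicates 1 and 3 below them in both.

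Of the 11 amino acid carriers the groups did not overlap in 2 (18.2%, background 21.9%). Both were lower at hypertensive pressure (background for lower genes 12.6%). SLC1A1 (EAAT3), which takes up glutamate and cysteine, had signals of 398, 213 and 312 under normotensive and 176, 87.2 and 103 under hypertensive pressure. Here replicate 2 was the lowest hypertensive array. The SLC1A1 ratio was 0.391 (log2 -1.36, SE 0.38, limma adjusted p = 0.238), but a further, dimmer probe set had the opposite sign, at 1.31 with overlapping groups. SLC38A9, the lysosomal carrier that reports arginine to mTORC1, was at 1197, 1474 and 1232 against 297, 832 and 656. All hypertensive arrays lay below the normotensive ones, and the further SLC38A9 probe set did so too, at ratios of 0.421 (log2 -1.25, SE 0.40, adjusted p = 0.257) and 0.584.

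The exchangers and glutamine carriers that feed growing cells did not separate. The arginine transporter SLC7A1 was at 2136, 1329.97 and 2289 against 3365, 1687 and 3461. Hypertensive replicates 1 and 3 lay above the normotensive arrays and replicate 2 among them (log2 0.53, SE 0.36). For SLC3A2 (CD98), the heavy chain shared by several amino acid exchangers, the log2 difference was 0.22 (SE 0.38), and -0.12 without hypertensive replicate 1. SLC1A5, a glutamine carrier, differed by -0.21 on the log2 scale (SE 0.39), and by 0.12 without normotensive replicate 1. A further glutamine carrier, SLC38A1, differed by 0.0015 (SE 0.38). SLC3A1, the heavy chain of the cystine transporter, was chosen after its values were seen: it was at 746, 536 and 604 against 16.5, 669 and 111. Replicate 2 lay among the normotensive arrays while replicate 1 was under the signal limit, which left the SLC3A1 log2 difference of -2.54 with an SE of 1.11. The SLC3A1 ratio of 0.172 was 0.437 without hypertensive replicate 1 and 0.0686 without replicate 2. A further, dimmer SLC3A1 probe set, at 83.3, 42.2 and 87.5 against 30.2, 43.3 and 57.1, had a ratio of 0.624 with overlapping groups. There replicate 2 lay between the other hypertensive arrays.

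Genes of the amino acid response, which control serine synthesis and amino acid supply under shortage, were measured for 11 of 17 listed. The groups did not overlap in 6 of the 11, with 2 higher (background 9.28%) and 4 lower (background 12.6%). CTH, which makes cysteine by transsulphuration, was at 119, 94.3 and 86.5 against 776, 181 and 514, a ratio of 4.21. The CTH ratio was 3.08 without hypertensive replicate 1 and 6.38 without replicate 2. PSPH, the last enzyme of serine synthesis, was at 1405, 1110.4 and 1637 against 97.9, 596 and 279.6, a ratio of 0.186, which was 0.299 without hypertensive replicate 1 and 0.121 without replicate 2. CEBPB was higher, and PSAT1, MTHFD2 and ASNS were lower without overlap. Limma's adjusted p ran from 0.222 for CEBPB to 0.317 for ASNS over these 6 genes.

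Of the 6 vitamin and choline carriers 3 were higher without overlap (50%, background 9.28%) and 0 lower (background 12.6%). Among the 3, SLC23A2 was kept through the hypertensive arrays and had to have the higher mean there. SLC46A2, which belongs to the folate carrier family by number, had signals of 139, 160.3 and 193 under normotensive and 1944, 495 and 265 under hypertensive pressure. Replicate 1 lay far above the others, and the ratio of 3.90 (log2 1.96, SE 0.65, limma adjusted p = 0.264) was 2.22 without it and 6.03 without replicate 3. SLC5A6, the sodium-dependent carrier of biotin and pantothenate, was at 195, 181 and 153 against 222, 315 and 321. The SLC5A6 ratio was 1.61 (log2 0.68, SE 0.29), and here replicate 1 was the hypertensive array nearest to the normotensive ones. SLC23A2, a vitamin C carrier, was at 45.6, 51.4 and 11.8 against 164, 75.4 and 70.4. Its normotensive signals lay around or under the limit, so the ratio of 3.16, which was 1.97 without normotensive replicate 3, is uncertain in size. The folate carrier SLC46A1, the choline carrier SLC44A2 and the riboflavin carrier SLC52A2 had lower means with overlapping groups.

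The median of the nucleotide sugar carriers was 0.26, -0.06 and 0.49 on hypertensive replicates 1, 2 and 3. SLC35C1, which brings GDP-fucose into the Golgi, was at 30.3, 46.2 and 34.6 under normotensive and 85.9, 90.6 and 78.3 under hypertensive pressure. This was at least 1.75-fold higher, taking the limit as the normotensive level, in a gene kept only because its hypertensive signals were high. SLC35A3, the carrier of UDP-N-acetylglucosamine, was at 475, 399 and 602 against 255, 345 and 379, lower without overlap at a ratio of 0.664 (log2 -0.59, SE 0.30). SLC35B3, a carrier of the sulphate donor PAPS, was at 382, 395 and 426 against 1112, 411 and 1209.5. Replicates 1 and 3 stood above the normotensive arrays and replicate 2 lay within them. SLC35B1 and SLC35F6, chosen like SLC35B3 after their values were seen, were also high on replicates 1 and 3, while replicate 2 lay below all normotensive arrays. SLC35F5, of unsettled substrate, had a log2 difference of -0.29 (SE 0.38), and 0.14 without hypertensive replicate 1.

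Inorganic ion exchangers (6 genes) showed no gene whose groups did not overlap (background 21.9%). SLC12A4 (KCC1), the potassium chloride cotransporter of volume regulation, was at 114, 124 and 75.0 against 235, 121 and 167 (log2 0.72, SE 0.36). SLC26A11, an anion carrier, was at 472, 449 and 307 against 224, 542 and 212 (log2 -0.45, SE 0.42). The sodium bicarbonate carrier SLC4A4 differed by 0.21 (SE 0.29) on the log2 scale. SLC8B1, the mitochondrial sodium calcium exchanger, differed by 0.024 (SE 0.36). The creatine carrier SLC6A8 was at -0.25 (SE 0.36). The sodium calcium exchanger SLC8A1 of the plasma membrane lay below the signal limit. SLC9A3R1 (NHERF1), a scaffold of ion exchangers, had a log2 difference of -0.67 (SE 0.45), and SLC2A4RG was lower without overlap at a ratio of 0.583. Of the ATP-driven ion pumps that build the gradients used by these carriers, 13 of 22 listed were measured. The groups did not overlap in 1 of the 13 pumps (7.69%, background 21.9%), ATP6V0D1 (ratio 0.652). SGK1, a kinase that raises the surface level of several carriers, was at 395, 383 and 306 against 621, 445 and 1059.9, a ratio of 1.85 without overlap.

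The number of carriers called depended on hypertensive replicate 2. In 47 of the 88 genes (53.4%) the 3 hypertensive arrays lay on the same side of the normotensive mean, and in 27 (30.7%) replicate 2 lay on the opposite side to both others; over all genes these shares were 44.8% and 33.5%. Without replicate 2, 25 of the 88 passed an adjusted p of 0.05 by limma (28.4%, background 26.0%), 12 higher (background 10.3%) and 13 lower (background 15.7%). The higher genes were the metal importers SLC11A2, SLC39A14 and SLC39A7, the mitochondrial SLC25A3, SLC25A5, SLC25A21, SLC25A30, SLC25A36 and SLC25A37, and SLC35B1, SLC35B3 and SLC35F6. The lower genes were SLC2A1, SLC2A12, SLC50A1, SLC16A3 and SLC16A13 of sugar and monocarboxylate transport, SLC3A1 and SLC38A9, SLC25A1, SLC25A11, SLC25A20 and SLC25A46, and SLC27A1 and SLC9A3R1. Of these, SLC27A1, SLC2A12 and SLC25A11 were kept through the normotensive arrays, so the signal limit itself favoured a lower hypertensive mean. Replicate 2, the array left out, correlated best of the 3 hypertensive arrays with the normotensive ones. Of the higher genes, SLC25A5, SLC25A21, SLC35B1 and SLC35F6 lay below the normotensive mean on replicate 2. Of the lower genes, SLC2A1, SLC2A12, SLC16A3, SLC16A13, SLC3A1, SLC25A11, SLC25A46 and SLC9A3R1 lay above that mean on replicate 2. With array weights, which give less weight to arrays far from their group, 43 passed (48.9%, background 40.7%), 21 higher (background 15.4%) and 22 lower (background 25.3%). The 22 lower genes include all 5 kept through the normotensive arrays, and the 21 higher include SLC35C1, kept through the hypertensive arrays.

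**Figure D5:**
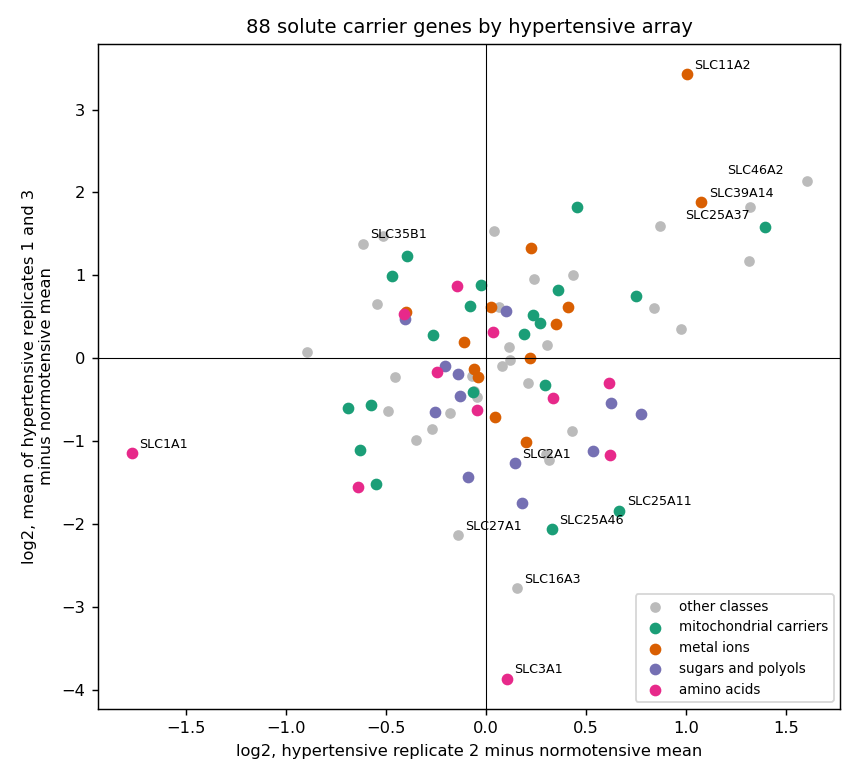
Each point is 1 of 88 solute carrier genes, placed by its log2 signal on hypertensive replicate 2 (x axis) and its mean on replicates 1 and 3 (y axis), both relative to the normotensive mean. SLC11A2, SLC39A14, SLC46A2 and SLC25A37 lie high on both axes, while SLC2A1, SLC16A3, SLC3A1, SLC25A11 and SLC25A46 lie low on the y axis but above 0 on the x axis.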

How the data were processed

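The series table holds the linear signal intensities deposited by the authors, computed with GCOS and MAS5 per the submitters' processing notes, without stated versions. Each array had a 2% trimmed mean signal of 500.11 to 500.131. Of 24123 probe sets, 124 controls were left out. Gene symbols came from the platform annotation, and 87 of the 88 members had the same symbol in RefSeq by gene ID. Intensities were taken to log2 without a pseudocount, and 14399 probe sets at or above the 40th percentile of mean log2 signal (48.5) were kept. The test was limma 3.58.1 under R 4.3.3, using lmFit and eBayes with an intensity trend, 2-sided, with Benjamini-Hochberg adjustment over all kept probe sets, and was checked on simulated data. Ratios are of geometric means; the limit of 48.5 stood in for a group below it on all arrays.

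The members, substrate classes and gene lists were chosen with earlier results of these data known. Named genes were the up to 12 of smallest p in each direction with non-overlapping groups, the brightest and the smallest-p gene of each class of at least 4, a fixed list, and up to 2 of smallest p per related list. Other genes named were chosen after their values were seen. Of 19 members with further kept probe sets, 10 had all in the same direction and 9 did not. Some genes of the fixed list, among them SLC7A5, SLC7A11, SLC16A1, SLC20A1, SLC39A8 and SLC40A1, had no probe set with a single symbol here and were not analysed here. The number of arrays limits the precision.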

Additional observations from a re-analysis of the deposited data

How the results depend on the processing

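Of 788 values recomputed under other settings, 702 were taken as unchanged. A count was unchanged if within 1.5-fold of the main count, and a median if it moved by less than the replicate spread. A single gene was unchanged if it kept its direction and side of the threshold. The 0 probe sets past the threshold became 5639 with array weights and ranged from 0 to 3505 with an array left out (3505 without hypertensive replicate 2, 1 without normotensive replicate 2). Solute carriers past it became 21 higher and 22 lower with array weights, and 0 to 12 and 0 to 13 with an array left out. Those at an unadjusted p under 0.05, 14 higher and 5 lower, became 24 and 26 with array weights, and 11 and 8 without the filter. With an array left out they ranged from 5 to 22 and from 3 to 20. The count of non-overlapping groups was 16 to 31 higher and 10 to 24 lower with an array left out, where fewer arrays overlap less often. It was 11 higher and 5 lower with the 60th percentile filter. Shares over all genes at an unadjusted p or by overlap were not computed under these settings. These counts therefore do not set the carriers apart from other genes.

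The median over solute carriers was 0.011 with a median shift, 0.081 with the mean of all probe sets, and -0.092 to 0.010 with an array left out. With array weights the amino acid, sugar and mitochondrial medians were -0.51, -0.59 and -0.033. With the 60th percentile filter the metal, inorganic ion and vitamin medians were 0.49, -0.21 and 0.68, and without a filter the vitamin median was 0.64. Over genes with both group means at the limit or above, added after seeing the data, the vitamin median was -0.17. With the mean of all probe sets the metal and inorganic ion medians were 0.091 and 0.38. With an array left out the ranges were -0.48 to -0.12 (amino acids), -0.59 to -0.20 (sugars), 0.14 to 0.41 (metals), 0.11 to 0.42 (mitochondria) and 0.16 to 0.62 (nucleotide sugars). Of single genes, none of 520 values lost a call, as none had one. A call was gained in 37, with array weights or without hypertensive replicate 2. The direction reversed in 5: SLC35F5 (0.125 with array weights, 0.14 without hypertensive replicate 1), SLC3A2 (-0.12 without hypertensive replicate 1), SLC1A5 (0.12 without normotensive replicate 1) and SLC2A3 (0.37 without hypertensive replicate 3). With an array left out these genes ranged from -0.60 to 0.14 (SLC35F5), -0.12 to 0.53 (SLC3A2), -0.48 to 0.12 (SLC1A5) and -0.54 to 0.37 (SLC2A3). Except for fewer arrays or genes, the cause was not tested.

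The labels do not pair the replicate numbers, and deviations of same-numbered arrays correlated at 0.0593, 0.072 and 0.226, though each array correlated best with its own number. With the replicate number as a block, 0 probe sets passed. Carriers at an unadjusted p under 0.05 were then 11 higher and 9 lower, in place of 14 and 5, and the share over all genes was not computed. Signals near the limit of 48.5 are little above background, so ratios of dim genes such as SLC23A2, SLC35C1 and SLC27A1 are least certain.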

Other observations

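Other transporter families on the array were measured beside the solute carriers, and none of their genes passed the genome-wide threshold by limma. Aquaporin-1 (AQP1), a water channel, was at 2017, 2413 and 1847 under normotensive pressure (replicates 1, 2, 3) and at 699, 912 and 1257 under hypertensive pressure. All hypertensive arrays lay below the normotensive ones, at a ratio of 0.447 (log2 -1.16, SE 0.29, adjusted p = 0.235). AQP3, which also passes glycerol, was higher without overlap at a ratio of 1.55. Of 9 ABC transporters, which are driven by ATP, the groups did not overlap in 2 (22.2%, background 21.9%). The cholesterol exporter ABCA1 was higher, and ABCD3, which brings fatty acids into peroxisomes, was at 1626, 1591 and 1945 against 631, 743 and 1224, a ratio of 0.485. The organic anion carriers SLCO3A1 and SLCO2B1 both had lower means, at ratios of 0.587 without overlap and 0.563 with overlap; the SLCO2B1 ratio was 1.18 without hypertensive replicate 1.

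Of the mineral and phosphate genes, 4 of 9 listed were measured. The calcification inhibitor MGP lay lower without overlap, at a ratio of 0.490, and SPP1 (osteopontin) lay higher without overlap at a ratio of 1.20.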
